A study of Homo sapiens with 24 samples.

Results

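The short arm of chromosome 5 held 332 of the 6236 peaks in the 6 peak lists of this study, and 292 of them, 88.0%, belonged to 1 list, that of osimertinib-resistant cells with tagged METTL7A. That list is also by far the longest, with 4937 peaks or 79.2% of all. Members were all peaks on chromosome 5 that start below base 46100000 of build GRCh37, the border between band 5p12 and the centromere band. The region was selected on peak positions in these same lists, because they crowd there, and on their overlap with wild-type peaks. The study sequenced chromatin pulled down through the MYC tag from PC9, a human lung adenocarcinoma line driven by mutant EGFR, and from PC9-OR, its osimertinib-resistant derivative. Osimertinib is an inhibitor of the EGFR kinase. The 12 immunoprecipitated libraries form 6 groups with 2 replicates each. PC9 cells were untreated and either wild type or overexpressing METTL7A, a methyltransferase-like protein, fused to the MYC tag and FLAG. PC9-OR cells were grown in 1 uM osimertinib and were wild type, carried an empty vector labelled with the same tags, or overexpressed tagged METTL7A or its K86A form. No source used here says whether the engineered cells were single clones or pools, and whether endogenous MYC protein was also captured was not tested.

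The 6 lists hold 10 peak-calling runs, told apart by peak numbers and named first and second in file order. Taking a run for a replicate is an inference. Of the members, 286 came from the second PC9-OR METTL7A run and 6 from the first, 29 from the first and 9 from the second wild-type run of PC9, and 2 from the only run of PC9 with METTL7A. As shares of each run's peaks on standard chromosomes the order was another one. The share was 10.8% in the second wild-type run (9 of 83, exact 95% binomial interval 5.08 to 19.6%) and 9.09% in the first PC9-OR METTL7A run (6 of 66, 3.41 to 18.7%). It was 5.87% in the second PC9-OR METTL7A run (286 of 4869, 5.23 to 6.57%), 3.57% in PC9 with METTL7A (2 of 56, 0.435 to 12.3%) and 2.54% in the first wild-type run (29 of 1143, 1.71 to 3.62%). The arm makes up 1.49% of the genome's length. The PC9-OR wild-type, empty-vector and K86A lists held 0 members, among only 17 peaks in all. Lists that short could hold few members, and their upper exact 95% Poisson bound is 3.69 peaks for each run with 0. All intervals here cover counting error only. They treat peaks as independent of each other, although many neighbouring peaks lie in groups, so they may be too narrow. The fold given with a peak is the authors' value, the ratio of fragments at its summit to the local background, and it ranks peaks only within a run, since the runs of a list differ in background. Fragment numbers were worked out from that fold and the p-value beside it.

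The arm carries genes that lung cancers often gain. Its terminal band, 5p15.33, holds TERT, the catalytic subunit of telomerase, with CLPTM1L beside it. It also holds SDHA, a subunit of mitochondrial complex II, AHRR, a repressor of the aryl hydrocarbon receptor, TRIP13, an ATPase of the mitotic checkpoint, and the homeobox genes IRX1, IRX2 and IRX4. Telomerase keeps chromosome ends long enough for continued division, and its catalytic subunit is silent in most normal adult cells and active in most cancers. Further along lie TRIO in 5p15.2, a run of cadherin genes (CDH18, CDH12, CDH10, CDH9, CDH6) in 5p14.3 to 5p13.3, a region with few other genes, and then the growth and cytokine genes of 5p13 and 5p12, such as SKP2, RICTOR, OSMR, LIFR, GHR and FGF10. These gene places are textbook background by band. Gene coordinates of GRCh37 were not used here, so no peak is assigned to TERT or to any other gene, exon or promoter.

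Chromosome 5 peaks lay mostly on the short arm in 3 of the 5 runs that had any, in wild-type cells and in cells with tagged METTL7A. In the second PC9-OR METTL7A run, 286 of 414 chromosome 5 peaks were on the short arm, 69.1% with an exact 95% binomial interval of 64.4 to 73.5%. The arm makes up 25.5% of the chromosome's length. The first PC9-OR METTL7A run had 6 of 9 there, 66.7% (29.9 to 92.5%). The second wild-type run of PC9 had 9 of 13, 69.2% (38.6 to 90.9%). Per Mb, short-arm peaks were 6.53, 5.85 and 6.58 times as dense as long-arm peaks in these runs, in that order, although the intervals of both short runs are wide. The remaining runs lay nearer the share by length. The first wild-type run had 29 of 93, 31.2% (22.0 to 41.6%), and PC9 with METTL7A had 2 of 5, 40% (5.27 to 85.3%). The arm was chosen for its crowding, so these shares describe it and carry no test.

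**Figure D1:**
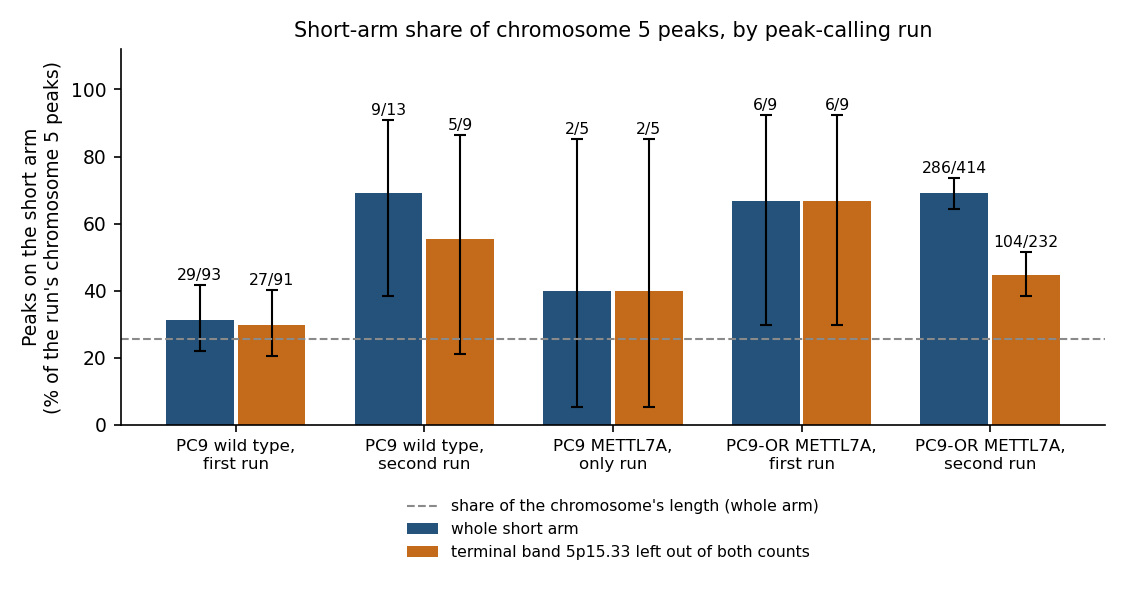
Share of each run's chromosome 5 peaks that lie on the short arm (percent), with exact 95% binomial intervals as black error bars and short-arm over all chromosome 5 peaks written above. Blue bars show the whole arm and orange bars leave out 5p15.33, and the dashed line marks 25.5%, the arm's share of the length. The second wild-type run and both PC9-OR METTL7A runs are at 66.7 to 69.2% for the whole arm.

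Without 5p15.33 the short-arm share was lower in the second METTL7A run, at 104 of 232, 44.8% (38.3 to 51.5%), against 23.6% by length. The second wild-type run was at 5 of 9, 55.6% (21.2 to 86.3%), and the first METTL7A run stayed at 6 of 9, since it held 0 peaks in the terminal band. With 6 arm peaks, a count of 0 allows up to 45.9% of them in that band. The terminal band carried 182 of the 286 arm peaks of the second METTL7A run, 63.6% (57.8 to 69.2%), and 4 of the 9 of the second wild-type run, 44.4% (13.7 to 78.8%), in 4.5 of the arm's 46.1 Mb. The wild-type cells carry no tagged METTL7A. Their interval rests on 9 peaks and is wide, and the part of the tagged protein in these shares was not tested.

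Among the 48 chromosome arms, 5p ranked high in peaks per Mb in each of the 5 runs, with the centromere band counted in its 48.4 Mb. In the second METTL7A run it was the third at 5.91 per Mb, behind 20q at 15.4 and 22q at 9.18, while 5q was at rank 27 with 0.966. It held rank 2 in the first METTL7A run at 0.124 per Mb, rank 1 in the second wild-type run at 0.186, rank 2 in the first at 0.599 and rank 5 in PC9 with METTL7A at 0.0413. Outside the second METTL7A run these ranks rest on 6, 9, 29 and 2 peaks, in that order. In the first wild-type run the next arms were nearly level with 5p, with 20q at 0.591 and 7q at 0.574 per Mb.

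The terminal band was crowded and the rest of the arm was sparse. In the second METTL7A run, 5p15.33 held 182 peaks in 4.5 Mb, or 40.4 per Mb, 25.7 times the mean of the run. It ranked 4 among 862 bands. The other 11 bands held 104 peaks in 41.6 Mb, or 2.5 per Mb, against a genome mean of 1.57, and the terminal band was 16.2 times as dense as they were. Peaks covered 2.22% of the terminal band and at most 0.303% of any other band of the arm, a maximum reached in 5p15.2.

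Outside the terminal band, 5p15.31 and 5p15.2 led, with 21 and 31 peaks, or 6.0 and 5.96 per Mb. The 3 emptiest bands of the arm were bands of the cadherin genes, 5p14.3 with 4 peaks (0.816 per Mb), 5p14.1 with 4 (0.93 per Mb) and 5p13.3 with 5 (1.02 per Mb). The short band 5p14.2, home of CDH10, was not among them, with 3 peaks in 1.3 Mb (2.31 per Mb). Toward the centromere the density was 2.39 per Mb in 5p13.2, a band that holds SKP2, a subunit of a ubiquitin ligase of the cell cycle, and IL7R, the interleukin-7 receptor. It was 2.44 per Mb in 5p13.1, the band of RICTOR, a subunit of the mTORC2 kinase complex, and 1.67 per Mb in 5p12. The darkest-stained bands of the arm, 5p14.3 and 5p14.1, were also its emptiest, and the other stained bands ran from 1.67 to 5.96 per Mb. Light and stained bands as whole classes were at similar densities. The 5 light bands other than 5p15.33 held 2.56 peaks per Mb and the 6 stained bands 2.46.

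**Figure D2:**
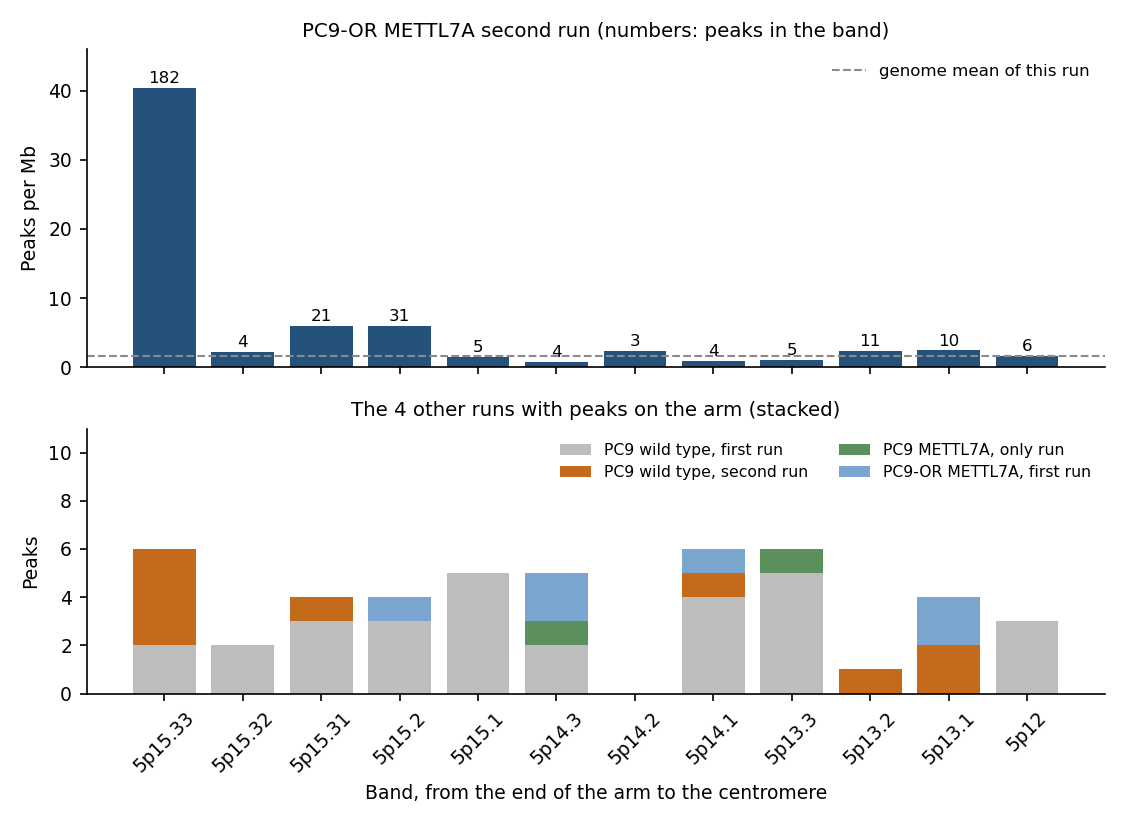
Top, peaks per Mb of the second PC9-OR METTL7A run in the 12 bands of the arm, with peak numbers above the bars and the genome mean of the run dashed. Bottom, peak numbers of the other 4 runs in the same bands, stacked. The 182 peaks of 5p15.33 stand far above every other band in the top panel, whereas no band holds more than 6 in the bottom panel.

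The crowding fell off with distance from the end of the arm. The first peak of the second METTL7A run was chr5:82127-82493, and the first 4 windows of 1 Mb held 62, 74, 28 and 15 peaks. The next windows held 4 and 1. All 20 windows of 100 kb in the first 2 Mb held at least 1 peak, with a median of 7 and a highest count of 15. Of the 45 such windows of the terminal band, 37 held a peak, and of the 416 on the rest of the arm, 75 did, or 18.0%. The last peak of the terminal band, chr5:4222980-4223609, had a fold of 4.47.

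Further groups of 16 and 21 peaks stood apart from the terminal one. The first lay from 6 to 7 Mb, between chr5:6175245 and 6789339, and was led by chr5:6684559-6685189 with a fold of 7.63 and 10 fragments. The second lay from 10 to 11 Mb in 5p15.2, between chr5:10127224 and 10859419, and was led by chr5:10699862-10700954 with a fold of 8.95 and 11 fragments. Together, the 6 windows of 1 Mb with 10 or more peaks held 216 of the 286. Of the other windows, 32 held 1 to 5 peaks and 9 held 0. The longest stretch without a peak, 3.13 Mb, ran from 28405041 to 31531988, from 5p14.1 into 5p13.3. The last member of this run, chr5:43410285-43410644 with a fold of 5.46, ended 2.69 Mb before the border. The first peak beyond it, chr5:63256869-63257222 in 5q12.3 with a fold of 3.73, was 17.2 Mb past it, so the place of the border decides the membership of no second-run peak.

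Neighbouring peaks lay close together in the terminal band. The median gap from 1 peak to the next was 9476 bp there (quartiles 2659 and 28426 bp) and 121968 bp on the rest of the arm (24487 and 566488 bp). Gaps of at most 10 kb made up 93 of 181 in the terminal band, 51.4%, and 15 of 103 elsewhere, 14.6%. With gaps of at most 10 kb bridged, the 182 terminal peaks formed 89 groups, and 129 of the peaks were in the 36 groups with 2 or more. The largest groups had 9 peaks each, in chr5:745758-771899 and chr5:1391337-1432808. On the rest of the arm the 104 peaks also formed 89 groups, of which 78 were single peaks. The largest of them had 5 peaks, in chr5:10660825-10689182.

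**Figure D3:**
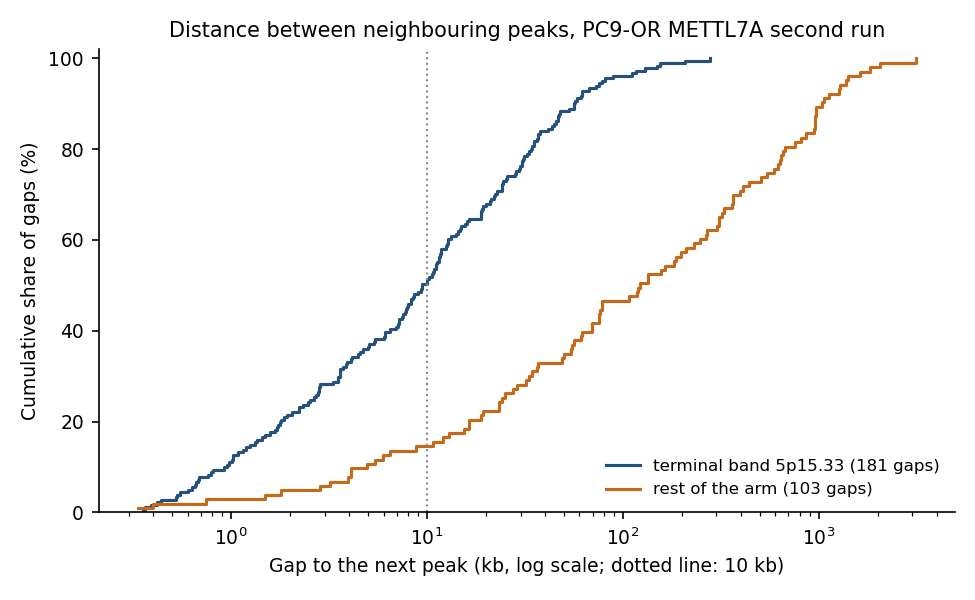
Cumulative share of gaps between neighbouring peaks (percent) against gap length in kb on a log scale, for 181 gaps within 5p15.33 (blue) and 103 on the rest of the arm (orange), second PC9-OR METTL7A run. At the dotted 10 kb line the blue curve has reached 51.4% and the orange curve 14.6%.

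The most filled window of 100 kb ran from 1400001 to 1500000 and held 15 peaks. By summits, it opened with chr5:1399803-1401181, with a fold of 8.95, and closed with chr5:1493546-1493960, with a fold of 5.30. Folds in it ran from 3.73 to 8.95 with a median of 5.22, and widths from 316 to 1808 bp with a median of 605 bp. Its peaks rested on 4 to 11 fragments.

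Peaks of the arm were low in absolute terms. In the second METTL7A run they rested on a median of 6 fragments (range 4 to 18), with a median fold of 5.17 (3.58 to 11.9) and a median width of 410.5 bp (315 to 2138 bp). The lowest and most common background of a run is called its floor here. Of the 286 peaks, 134 sat at the floor, and for these the number of fragments alone fixes the fold. There, 4 fragments gave 3.73, 5 gave 4.47, 6 gave 5.22, 7 gave 5.97 and 8 gave 6.71. The commonest step was 5 fragments, with 48 peaks, followed by 6 with 31 and 7 with 19. Only 11 of the 134 rested on more than 8. Differences of 1 step between 2 such peaks are a difference of 1 fragment.

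The terminal band stood out by number and not by the median height of its peaks. The median fold was 5.22 in 5p15.33 (quartiles 4.47 and 5.81) and 5.13 on the rest of the arm (4.47 and 5.97), less than the step of 1 fragment. The median number of fragments was 6 and 7, and the median width 421 and 392.5 bp. Peaks of at least 10 fragments were 20 of 182 in the terminal band (6.84 to 16.5%) and 15 of 104, 14.4% (8.30 to 22.7%), elsewhere on the arm.

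The long arm of the same chromosome held weaker peaks than the short arm. Of its 128 peaks in this run, 2 had at least 10 fragments, 1.56% (0.19 to 5.53%), against 35 of 286 on the short arm, 12.2% (8.67 to 16.6%). In the whole run 9.75% of peaks had that many. At a −log10 q of at least 5 there were 6 long-arm and 41 short-arm peaks, 4.69% (1.74 to 9.92%) against 14.3% (10.5 to 18.9%), with 8.83% in the whole run. The share of the short arm among chromosome 5 peaks thus rose from 69.1% of all to 87.2% at that −log10 q and to 94.6%, 35 of 37, at 10 or more fragments. The median fold was 4.61 on the long arm and 4.59 over all other peaks of the run. Local background moved with this. It was above the floor at 152 of the 286 short-arm peaks, 53.1% (47.2 to 59.0%), at 37 of the 128 long-arm peaks, 28.9% (21.2 to 37.6%), and at 41.4% of all peaks of the run. Within the short arm it was above the floor at 98 of 182 terminal peaks, 53.8%, and at 54 of 104 others, 51.9%. The part of local background in the peak numbers was not tested.

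**Figure D4:**
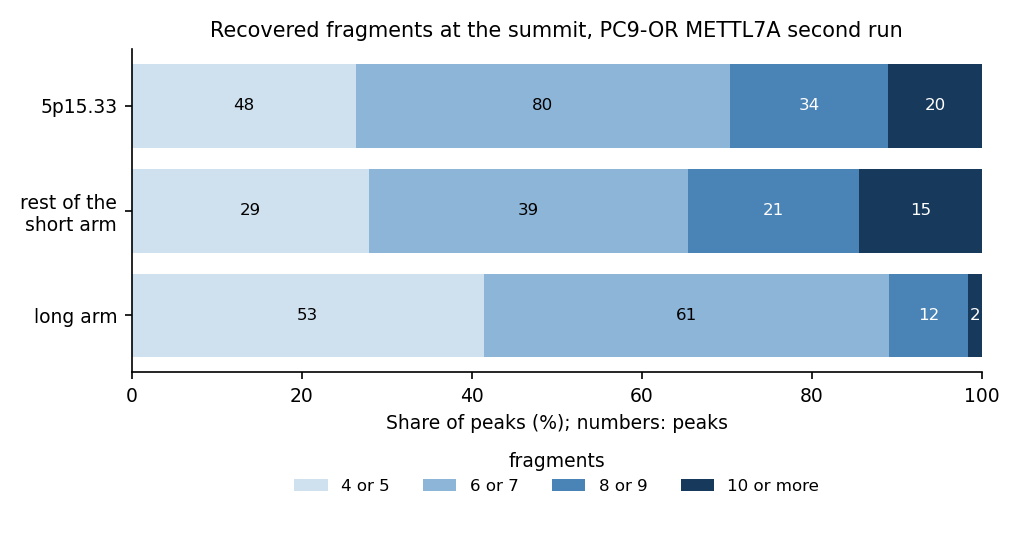
Share of peaks (percent) by the number of fragments recovered at the summit, for 5p15.33, the rest of the short arm and the long arm, second PC9-OR METTL7A run, with peak numbers written in the bars. The class of 10 or more holds 20 and 15 peaks on the short arm and 2 on the long arm.

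Of the 20 peaks with the highest fold on the arm, 14 lay within the first 2 Mb. That stretch held 136 of all 286 arm peaks of the second METTL7A run, 47.6%. By band, 15 were in 5p15.33, which held 63.6% of all. Another 2 were in 5p15.2 and 1 each in 5p15.31, 5p13.2 and 5p13.1. The 20 had a median width of 1096.5 bp, against 410.5 bp on the whole arm, and 11 exceeded 1 kb. At the top was chr5:769860-771899 in 5p15.33, 2040 bp wide. Its fold was 11.9 on 15 fragments at a floor background, and its −log10 q was 15.1. The second was chr5:34190778-34192702 in 5p13.2, 1925 bp wide, with 9.70 and 12 fragments, far from the terminal group. Folds of 8.95 on 11 fragments followed at chr5:162596-163742, chr5:1399803-1401181 and chr5:10699862-10700954. Next came chr5:107258-107863, with 8.34, and chr5:1139332-1139820, with 8.20. The lowest of the 20, chr5:41904008-41904559 in 5p13.1, had 7.06.

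The stretch around the leading peak combined the highest values of the arm with raised background. The widest peak of the arm, chr5:756914-759051, lay in the same group of 9 peaks. It was 2138 bp wide, with a fold of 7.51 on 17 fragments and a background of 4.10 floors. The peak with the most fragments, 18, was chr5:764208-764878, with a fold of 5.89 and the highest background of the arm, 6.52 floors. The leading peak itself was at the floor. In the window from 700001 to 800000 the median background of 10 peaks was 2.69 floors, whereas in the most filled window, from 1400001 to 1500000, it was at the floor. Over whole Mb, the first 2 windows of the terminal band had a higher background than the next 2. It was above the floor at 39 of 62 peaks in the first Mb and at 43 of 74 in the second, with the median background above the floor in both. In the next 2 it was above the floor at 11 of 28 and 5 of 15, with medians at the floor. In the group from 10 to 11 Mb it was above the floor at 17 of 21 peaks, with a median of 1.64 floors, and in that from 6 to 7 Mb at 5 of 16.

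Positions called in wild-type PC9 as well numbered 5, and all came from the second wild-type run. They were 5 of the 292 PC9-OR METTL7A short-arm peaks, 1.71% (0.558 to 3.95%). In the whole METTL7A list 0.304% of peaks overlapped a wild-type peak by at least 1 bp. Seen from the wild-type run, 5 of its 9 short-arm peaks lay on a METTL7A second-run peak, 55.6% (21.2 to 86.3%), against 8 of its other 74, 10.8% (4.78 to 20.2%), and 15.7% of the whole run. The overlap had entered the choice of the region, so these shares are given with no test. On the arm, the first wild-type run had 0 of 29 on a METTL7A second-run peak, which allows up to 11.9%, and 0.175% in the whole genome.

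The 5 positions lie in 3 bands. In 5p15.33, the wild-type peak chr5:671918-672454, with a fold of 4.96 on 5 fragments, lay inside chr5:671447-672773 of METTL7A, with 7.46 on 9. Also in that band, chr5:745767-746113, with 5.78 on 6 fragments, lay inside chr5:745758-746616, with 6.32 on 10 at a background of 2.17 floors. In 5p13.2, chr5:34193080-34193481, with 7.43 on 8 fragments, overlapped chr5:34193100-34193490, with 5.97 on 7, by 382 bp, and the summits were 24 bp apart. In 5p13.1, chr5:41870165-41870498, with 5.78 on 6 fragments, lay inside chr5:41870118-41870879, with 5.22 on 6, and the summits were 37 bp apart. The last, chr5:41904257-41904570, with 7.01 on 8 fragments, overlapped chr5:41904008-41904559, with 7.06 on 11, by 303 bp. Each fold is relative to the background of its own run, so the pairs show shared places and not equal or unequal binding.

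The other 4 peaks of the second wild-type run lay 64 bp to 11.3 kb from METTL7A peaks without touching them. In 5p15.33, chr5:1074274-1074596 was 64 bp from one and chr5:1331141-1331432 was 4.83 kb from one. In 5p14.1, chr5:28077863-28078194, with a fold of 7.02 on 12 fragments and 4.04 floors, was 5.75 kb away. In 5p15.31, chr5:6754849-6755170 was 11.3 kb away, between METTL7A peaks of the group from 6 to 7 Mb. The median gap of the 9 peaks was 0 kb and the longest was 11.3 kb. Of the 5 outside the terminal band, all were within 11.3 kb of a METTL7A second-run peak. METTL7A second-run peaks are themselves closely spaced in places. Their median gap was 9476 bp in 5p15.33, 24.1 kb in the group from 6 to 7 Mb and 121968 bp on the rest of the arm. Distances for this wild-type run's peaks outside the arm are not given here. Overlap with wild-type peaks had entered the choice of the region, so this nearness carries no test.

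Most short-arm peaks of the remaining runs lay further from METTL7A second-run peaks. The first wild-type run, whose 29 short-arm peaks rested on 2 or 3 fragments each, had a median gap of 290.6 kb and 2 peaks within 10 kb. It placed 2 of the 29 in 5p15.33, 6.9% (0.846 to 22.8%), at chr5:253016-253317 and chr5:2783869-2784194. PC9 with METTL7A had chr5:21825074-21825366 in 5p14.3, with a fold of 4.29 on 4 fragments, and chr5:31350091-31350458 in 5p13.3, with 4.96 on 6. They were 522.6 and 181.5 kb from the nearest METTL7A second-run peak of PC9-OR.

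The 6 peaks of the first PC9-OR METTL7A run came from the same kind of cells as the 286, yet 0 of the 6 overlapped one, which allows up to 45.9%. The share of all first-run peaks that overlap a second-run peak is not given here. The missing overlap is therefore not shown to be particular to the arm. They were narrow, from 231 to 280 bp, below the 315 bp of the narrowest second-run member. In 5p15.2 lay chr5:12095908-12096149, with a fold of 5.48. In 5p14.3 lay chr5:18848567-18848802, with 5.37, and chr5:19339176-19339411, with 6.43. The highest was chr5:24609784-24610014 in 5p14.1, with 8.04 on 13 fragments. In 5p13.1 lay chr5:39454766-39455045, with 7.16, and chr5:41508431-41508698, with 5.84. The last was 1.06 kb from a second-run peak, and the other 5 were 114.7 to 848.7 kb away. Among all 10 pairs of the 5 runs, only the second wild-type run and the second PC9-OR METTL7A run shared a position on the arm.

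**Figure D5:**
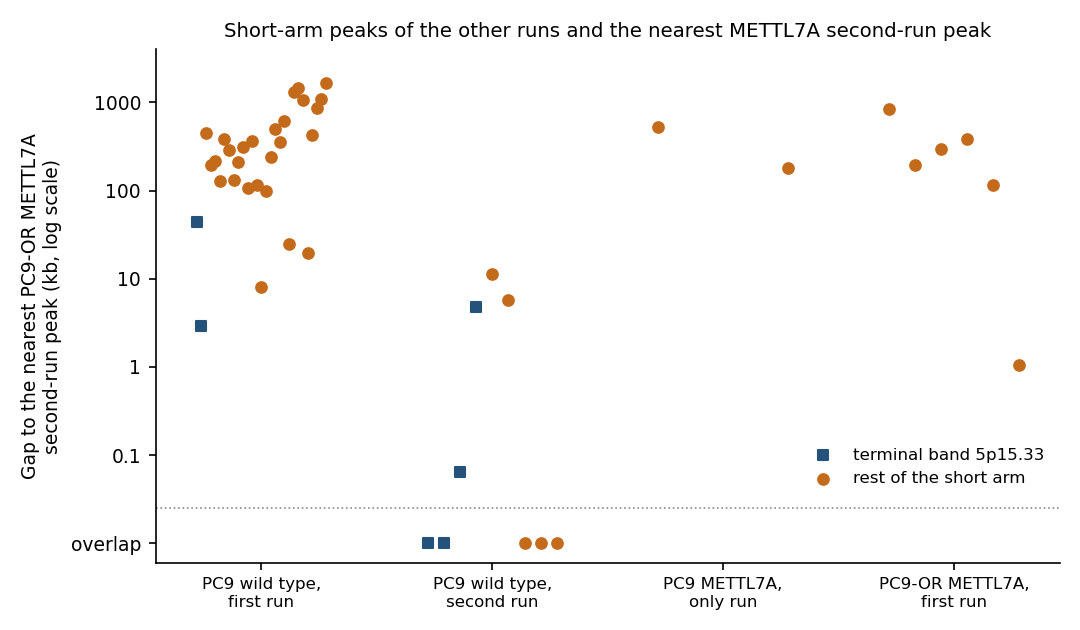
Gap in kb (log scale) from each short-arm peak of the other 4 runs to the nearest peak of the second PC9-OR METTL7A run, with overlapping peaks drawn on the bottom line. Squares are peaks in 5p15.33 and circles the rest of the arm. The 9 peaks of the second wild-type run sit at or below 11.3 kb, whereas most peaks of the first wild-type run lie beyond 100 kb.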

How the data were processed

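Chromatin immunoprecipitation with sequencing was analysed from 6 peak lists, 1 per immunoprecipitated group, grouped by sample title. The submitters' processing notes name, among other tools, Bowtie2 2.4.2, MACS2 2.2.7.1 and bedtools 2.30, and build GRCh37. No source used here gives their roles, their settings or the control. Each list gives the deposited fold (a ratio to local background at the summit), the deposited −log10 p and −log10 q, and a deposited score, which was not used. Every member had a −log10 q of at least 1.34.

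Runs were told apart by column 4. Bands of GRCh37 came from circlize 0.4.16, and a peak belongs to the band of its summit. Fragments (k) and background (b) were recovered from fold = (k + 1) / (b + 1) and the Poisson upper tail, within 1 unit of the last deposited digit. This succeeded for all 332 members with 0 having another solution, and the procedure was tested on simulated data. Background counts as above the floor when it exceeds it by more than 1%. The floors of the runs with members were 0.0131 and 0.211 in PC9 wild type, 0.151 in PC9 METTL7A, and 0.676 and 0.341 in PC9-OR METTL7A, in run order. Library depth was not analysed here, so the precision rests on these fragment numbers. Overlap means at least 1 bp. Shares have exact (Clopper-Pearson) 95% intervals. Named peaks are those of runs with at most 10 members, the 20 highest folds, the positions shared with wild type, record holders and peaks at borders, and others given are the leading peaks of groups. Alternatives covered thresholds, merging, overlap rules and leaving out runs. The region, the members, the lists and the genes named by band were chosen with earlier results of these data known, so no test was made. Python 3.11.15, pandas 2.3.3 and SciPy 1.17.1 were used.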

Additional observations from a re-analysis of the deposited data

Results flagged for a closer look

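By number of short-arm peaks per run, METTL7A and wild type differed in opposite directions in the lines. In PC9 the METTL7A run held 2 and the wild-type runs 29 and 9, a difference of means of -17. In PC9-OR the METTL7A runs held 6 and 286 and the wild-type runs 0 each, a difference of means of 146. The difference between the lines was not tested, and it is one of counts. As shares of each run's peaks the PC9 values were 3.57% with METTL7A (2 of 56) against 2.54% (29 of 1143) and 10.8% (9 of 83) in wild type, so the METTL7A run lay between the wild-type runs. The PC9-OR wild-type runs held only 9 and 1 peaks in all. The 29 peaks of the first wild-type run rested on 2 or 3 fragments each, and 286 of the 292 PC9-OR METTL7A peaks came from 1 run.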

How the results depend on the processing

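Values here are for the PC9-OR METTL7A list with both runs, unless a run is named. As deposited it held 292 short-arm peaks, 62.3% of them in 5p15.33, where peaks were denser than on the rest of the arm (16.2 times in the second run alone). The list had 5 positions shared with parental wild type, 74 peaks in the fullest 1 Mb and a median fold 0.0425 higher in 5p15.33 (interval -0.289 to 0.379, from the 95% intervals of both medians). That difference pools runs of unlike background, and within the second run alone it was 0.0927. At a −log10 q of at least 5 these became 42 peaks, 0 shared positions, 12 in the fullest window and a fold difference of 0.482, while 66.7% lay in the terminal band. With at least 10 fragments they became 39 peaks, 51.3%, 9.73 times, 0 shared, 13 and 0.503. Without the second run they became 6 peaks, 0%, 0 times, 0 shared and 1, and no fold difference could be computed. Merged within 10 kb they became 183 peaks, 48.6%, 8.75 times and 28. With both peaks widened by 1 kb on each side, 10 METTL7A peaks met a wild-type peak. Only 6 wild-type peaks were involved, so several METTL7A peaks met the same one. Shared positions numbered 0 without the second parental wild-type run. Both thresholds were applied to the wild-type list as well. Its 5 shared peaks rested on 5 to 8 fragments, so 0 shared at 10 or more fragments was fixed in advance. At a −log10 q of at least 5 only chr5:34193080-34193481 of them remained, at 5.28, and its METTL7A partner had 4.06. Crowding in 5p15.33 thus remained under every alternative except leaving out the second run, which holds all of it. For the second run, the short-arm share of chromosome 5 peaks was 60.5% merged within 10 kb, 44.8% without 5p15.33, 87.2% at the stricter −log10 q and 94.6% with at least 10 fragments. These settings for shares were chosen after seeing the data. The other 17 of 42 values under an alternative stayed within the interval of the value as deposited or, for a count, within 1.5 times. No paired analysis was possible because no result comes from a test and the lists carry no replicate number for every run. Where peaks rest on 4 to 8 fragments, depth limits what a missing overlap can show.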
